A study of Mus musculus with 12 samples.

Results

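The genes described here are 43 interferon-stimulated, class I antigen presentation and immunoproteasome genes of mouse soleus, a slow postural calf muscle. They were chosen by name from a list, and all 43 were found among the 30323 genes of the expression table. Transcript levels came from 12 polyA-selected RNA-seq libraries of soleus from male C57BL/6N mice aged 24 months, 3 libraries in each of 4 groups. Mice were classed as low functioning (LF) and high functioning (HF) from their performance on an accelerating rotarod, a turning rod that tests balance and stamina. In each class, laparotomy animals had the abdomen opened 5 days before the muscle was taken, and age-matched controls had no laparotomy. Crossing function with surgery gave the groups LF control and laparotomy and HF control and laparotomy. Every animal, controls included, came from an aging colony, was housed alone with free food and had 8 weeks of voluntary running in the home cage, so the series holds no sedentary group and no young group. Whether every library stands for its own mouse is not stated in the labels, so p-values measure the spread between these libraries only.

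Interferons are secreted proteins that cells release on sensing viral nucleic acid or on immune activation. Type I interferons signal through a receptor pair to a complex that includes STAT2 and IRF9 and binds interferon-stimulated response elements (ISRE), whereas interferon gamma acts through gamma-activated sites (GAS). The induced genes encode antiviral effectors, GTPases that attack intracellular vacuoles, the ubiquitin-like protein ISG15, and the peptide-loading machinery of MHC class I, which is normally low in muscle fibres. The immunoproteasome is a variant of the proteasome in which PSMB8, PSMB9 and PSMB10 take the place of the constitutive catalytic subunits PSMB5, PSMB6 and PSMB7.

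Promoter windows from RefSeq (GRCm38.p6), each running from 250 bases before a gene's start to 50 after it, were found for 36 of the 43 members. The ISRE letters (GAAA, any pair of bases, then GAAA), searched on both strands, were in 17 of the 41 member windows, which is 41.5%, against 3.44% of all 32851 windows of the same length. The GAS letters TTCNNNGAA, which read alike on both strands, were in 9 member windows, or 22%, against 8.3% of all windows. All 5 interferon-inducible GTPase genes had an ISRE match, compared with 6 of 11 antiviral effectors and 1 of 5 class I presentation genes. A match describes these letters in this window and is no evidence of binding. The 160 bases before the start are printed for 5 members whose levels separate the libraries below, each with an ISRE match. Other members that vary or differ below, such as Tap1, Irf7, H2-K1 and Xaf1, had neither motif in their windows. Isg15 (chr4:156200819-156200978, minus strand) has 3 ISRE matches, each overlapping the next, and Ifit3 (chr19:34583369-34583528, plus strand) has 2 apart. Bst2 (chr8:71537473-71537632, minus strand) has 2 ISRE matches that overlap each other, the first of which also overlaps a GAS match. Gbp7 (chr3:142530176-142530335, plus strand) and Igtp (chr11:58199396-58199555, plus strand) have both motifs. Capitals mark the ISRE and GAS matches, and each sequence reads 5′ to 3′ toward the gene.
Isg15: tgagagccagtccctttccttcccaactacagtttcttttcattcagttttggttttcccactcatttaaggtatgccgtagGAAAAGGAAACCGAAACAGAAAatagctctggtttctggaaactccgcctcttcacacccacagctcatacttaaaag
Ifit3: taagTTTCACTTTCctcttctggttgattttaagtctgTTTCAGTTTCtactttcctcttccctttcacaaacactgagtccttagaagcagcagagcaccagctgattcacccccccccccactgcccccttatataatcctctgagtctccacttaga
Bst2: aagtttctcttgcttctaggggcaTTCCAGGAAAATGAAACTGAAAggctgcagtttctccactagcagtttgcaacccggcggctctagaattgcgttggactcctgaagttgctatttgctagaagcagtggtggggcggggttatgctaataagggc
Gbp7: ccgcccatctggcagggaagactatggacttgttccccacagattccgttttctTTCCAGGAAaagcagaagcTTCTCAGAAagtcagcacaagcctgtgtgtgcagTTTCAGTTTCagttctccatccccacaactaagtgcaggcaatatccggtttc
Igtp: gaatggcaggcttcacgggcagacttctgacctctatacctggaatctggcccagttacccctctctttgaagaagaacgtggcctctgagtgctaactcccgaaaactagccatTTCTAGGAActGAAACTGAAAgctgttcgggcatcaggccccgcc

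Several members lie side by side. Of the 43 members 7 (Tapbp, H2-K1, Psmb9, Tap1, Psmb8, Tap2 and H2-D1) sit on chromosome 17 between 33915899 and 35267499 (GRCm38), the mouse MHC region, and Gbp7, Gbp3 and Gbp2 lie together on chromosome 3 between 142530342 and 142638008. Psmb9 and Tap1 overlap on opposite strands, as do Parp9 and Dtx3l, Irf7 and Phrf1, and Psme1 and Emc9. Irf9, Igtp and Tapbp overlap another tested gene on the same strand. Ifit3, Oas1a and Psme2 have near-identical copies (Ifit3b, Oas1g and Psme2b, 97.82%, 97.58% and 99.37% identical). The values of these genes are uncertain in so far as reads could be split between partners, since the sources used here do not give the strand setting of the counting.

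Levels are TPM, each transcript's share of all transcripts after scaling by its length, so genes can be compared with each other. TPM keeps no read depth, so the depth behind each value is unknown. Summed TPM per library ran from 956473 to 962830, mitochondrially encoded genes took 26.4% to 39.7% of it, and 10324 to 10954 genes reached 1 TPM. Myh4, a fast myosin gene, exceeded 30 TPM in 3 libraries (LF control replicate 3, LF laparotomy replicate 1 and HF laparotomy replicate 2). In this bulk tissue, more cells of a type and more RNA per cell cannot be told apart.

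In HF soleus, averaged over control and laparotomy, 4 of the 41 members whose mean reached 1 TPM were higher than in LF soleus and 1 was lower. The 4 that rose were Bst2, a membrane tether that holds budding virus; Psmb8, an immunoproteasome subunit; H2-K1, a class I heavy chain; and Xaf1, a proapoptotic interferon-induced protein. Dtx3l, a ubiquitin ligase that partners PARP9, fell. The test was limma on log2(TPM + 1) over all 10757 genes with that mean, with Benjamini-Hochberg adjusted p under 0.05. Of all tested genes 6.03% were higher in HF and 35.3% were lower, so 4 of 41 is close to the background for rises and 1 of 41 is far under it for falls. The median of all genes was itself -0.15 in HF on the log2 scale, and each log2 difference below is given relative to the all-gene median of its comparison, while the p-values test the unshifted difference. On that scale 39 of the 41 members were above the all-gene median, where 50% of genes are by definition, and their median was 0.47. At an unadjusted p under 0.05, 8 members were higher and 1 lower, against 8.76% and 41.7% of all genes.

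**Figure D1:**
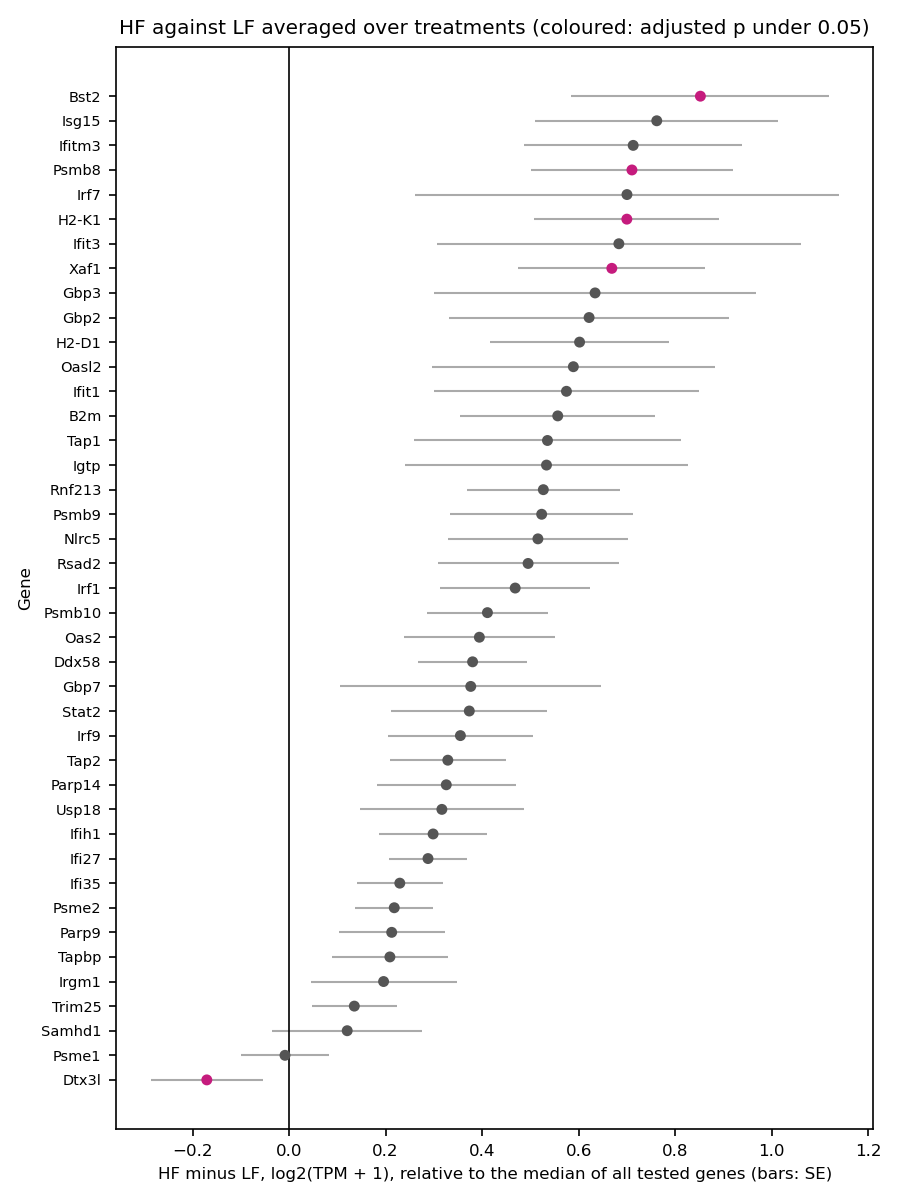
Difference between HF and LF, averaged over control and laparotomy, for each of the 41 tested members (x axis, log2(TPM + 1) relative to the all-gene median; y axis, gene; points, estimates; bars, SE; coloured points, adjusted p under 0.05). Points run from -0.17 for Dtx3l to 0.85 for Bst2, with 39 right of the line at 0.

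These calls turned on the choice of scaling and on single libraries. With size factors in place of TPM scaling 17 members were higher and 0 lower, where 19.9% of all genes were higher and 20.6% lower, and quantile normalization also gave 17 and 0. No member was called with no filter on low genes or without the 3 libraries high in Myh4, and only Dtx3l was with robust variance moderation. With array weights, Bst2, Psmb8, H2-K1 and Xaf1 all lost their calls, and Bst2 lost its call with rescaled TPM as well. Leaving out LF control replicate 3, LF laparotomy replicate 3 or HF control replicate 3 left 0 calls. Leaving out HF control replicate 2 or HF laparotomy replicate 3 left 1, Dtx3l, which was lower. Without LF control replicate 2 none of the members named above kept its call, and 1 other member was called lower. Without HF laparotomy replicate 2 there were 2, both higher, and without LF laparotomy replicate 1 there was 1 in each direction. Without LF laparotomy replicate 2 there were 11 higher, and without HF laparotomy replicate 1 there were 12. Apart from size factors, the shares of all genes called in these fits are not given here. The counts therefore cannot be read as particular to the members. In the fits that left out 1 library, 37 to 40 members were above the all-gene median and the members' median was 0.34 to 0.57.

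The interferons themselves were hardly listed. Of 21 interferon genes in the table, 16 were listed at 0 in every library, and the highest value of any was 0.0797 TPM, for Ifnb1 in LF control replicate 2. Among 20 tested receptors, kinases, adaptors and sensors upstream of the members, 10 fell in HF and 1 rose, with a median of -0.08, against 35.3% of all genes lower and 6.03% higher. With size factors 6 fell and 3 rose, against 20.6% and 19.9%. The largest falls among them were in Ifngr2, the second chain of the interferon gamma receptor (-0.48 ± 0.13 SE, adjusted p = 0.00237, limma), and Mavs, the mitochondrial adaptor of the RNA sensors (-0.38 ± 0.10, adjusted p = 0.00171). Jak1, the kinase that all interferon receptors share, fell by 0.36 on the log2 scale (SE 0.073, adjusted p = 0.000539). Jak1 measured 22.9, 23 and 24.4 TPM in LF control, 20.5, 24.7 and 23.8 in LF laparotomy, 17.4, 18.2 and 16 in HF control, and 13.6, 15.6 and 16 in HF laparotomy. Every HF library was below every LF library for Jak1. Within controls alone 31.3% of all genes had every HF value below every LF value, and after laparotomy 36.2% did. The share over both treatments together is not given here. The others that fell were Pias1, Stat3, Jak2, Traf6, Tbk1, Ptpn2 and Traf3, and the 1 that rose was Tmem173, which encodes the DNA-sensing adaptor STING (0.45 ± 0.12, adjusted p = 0.0493). The 6 that fell with size factors were Ifngr2, Mavs, Jak1, Pias1, Stat3 and Traf6, so the calls of Jak2, Tbk1, Ptpn2 and Traf3 were lost there. The call of Jak2 was also lost with quantile normalization, and the result of that setting for Tbk1, Ptpn2 and Traf3 is not given here.

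Among the 5 transcription factor genes none passed the test between HF and LF, and all were above the all-gene median, by 0.35 to 0.70. Irf1, the factor that interferon gamma induces early, measured 7.57, 7.09 and 5.81 TPM in LF control, 9.61, 8.3 and 5.89 in LF laparotomy, 8.52, 8.05 and 8.27 in HF control, and 7.39, 9.62 and 16.1 in HF laparotomy. All 3 HF controls were above all 3 LF controls for Irf1, while LF laparotomy replicate 1 (9.61 TPM) stood among the HF laparotomy values. Its difference was 0.47 ± 0.16 SE (adjusted p = 0.114, limma). Nlrc5, the transactivator of class I genes, measured 0.586, 0.424 and 0.262 TPM in LF control, 1.28, 1.4 and 0.562 in LF laparotomy, 0.755, 1.38 and 0.621 in HF control, and 0.961, 1.04 and 3.16 in HF laparotomy. The highest library was 4.19 times the median of the other libraries for Nlrc5. Irf7, which amplifies type I interferon production, measured 6.32, 1.97 and 2.59 TPM in LF control, 4.15, 16.3 and 1.46 in LF laparotomy, 2.57, 11.1 and 6.89 in HF control, and 5.53, 4.84 and 12.1 in HF laparotomy. Irf7 ranged 11.2-fold and Nlrc5 12.1-fold over the libraries, and Irf7 was highest in LF laparotomy replicate 2 and lowest in LF laparotomy replicate 3, within 1 group. Stat2 and Irf9, which encode parts of the type I complex, ranged from 1.34 to 4.4 TPM and from 2.52 to 6.3 TPM, and both were highest in HF laparotomy replicate 3.

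The 2 cytosolic RNA sensors ranged 1.81-fold and 1.98-fold over the libraries. Ddx58, which encodes RIG-I, measured 2.98, 2.34 and 2.1 TPM in LF control, 2.65, 2.4 and 2.1 in LF laparotomy, 2.86, 3.24 and 3.08 in HF control, and 2, 3.63 and 3.52 in HF laparotomy. The HF and LF libraries overlapped for Ddx58, and its difference was 0.38 ± 0.11 SE (adjusted p = 0.114, limma). Ifih1, which encodes MDA5, ranged from 1.21 to 2.39 TPM.

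Of the 11 tested antiviral effectors, 2 rose in HF, Bst2 and Xaf1, and all 11 were above the all-gene median, where the group's median was 0.57. Bst2 measured 10.1, 7.74 and 6.55 TPM in LF control, 11.1, 25.3 and 6.5 in LF laparotomy, 10.6, 17.8 and 17.1 in HF control, and 13.7, 18 and 28.8 in HF laparotomy. All 3 HF controls exceeded all 3 LF controls, but LF laparotomy replicate 2 (25.3 TPM) was above all HF libraries except HF laparotomy replicate 3 (28.8 TPM). Bst2 was higher in HF by 0.85 ± 0.27 SE (adjusted p = 0.0494, limma). Xaf1 measured 5.39, 4.87 and 5.45 TPM in LF control, 5.77, 8.64 and 2.84 in LF laparotomy, 6.49, 7.67 and 8.76 in HF control, and 6.5, 7.61 and 12 in HF laparotomy. Its HF control values, too, all lay above the LF control values, and its difference was 0.67 ± 0.19 (adjusted p = 0.0456). Ifitm3, which blocks viral entry and was the most abundant effector, measured 56.8, 47.2 and 45.2 TPM in LF control, 54.5, 82.3 and 32.8 in LF laparotomy, 54.6, 110 and 65 in HF control, and 56.1, 83.2 and 106 in HF laparotomy. Its 2 highest libraries were HF control replicate 2 and HF laparotomy replicate 3, and its difference of 0.71 ± 0.23 did not pass the test (adjusted p = 0.0599).

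Ifit3, one of the tetratricopeptide proteins that bind viral RNA, measured 5.36, 2.78 and 3.46 TPM in LF control, 3.43, 15.3 and 2.55 in LF laparotomy, 2.87, 10.2 and 7.27 in HF control, and 4.04, 10.6 and 11.1 in HF laparotomy. In every group but LF control at least 1 library was above 10 TPM for Ifit3 and another was near or under 4. The group's lowly expressed members varied in the same libraries: Oas2, an RNA-activated synthetase, measured 1.2, 0.575 and 0.49 TPM in LF control, 0.826, 2.08 and 0.616 in LF laparotomy, 0.791, 1.26 and 1.12 in HF control, and 1.14, 1.59 and 1.75 in HF laparotomy. LF laparotomy replicate 2 was highest for Oas2, as for Ifit1 (5.15 TPM). Oas1a and Ifi44 had means of 0.751 and 0.743 TPM and were not tested, and both were highest in LF laparotomy replicate 2, at 1.44 and 2.12 TPM. Ifi27 and Ifi35 were the steadiest effectors, ranging 1.57-fold and 1.38-fold over the libraries. Samhd1, which degrades nucleotides needed for viral DNA synthesis, ranged from 7.6 to 16.9 TPM, and Rsad2, Oasl2 and Ifit1 ranged 3.3-fold to 6.04-fold.

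No interferon-inducible GTPase passed the test between HF and LF. Gbp2, a guanylate-binding protein, measured 6.77, 5.92 and 4.44 TPM in LF control, 9.26, 9.51 and 3.87 in LF laparotomy, 6.67, 7.65 and 6.62 in HF control, and 6.18, 9.47 and 28.1 in HF laparotomy. Igtp, an immunity-related GTPase, measured 5.65, 6.29 and 3.96 TPM in LF control, 8.21, 8.23 and 3.57 in LF laparotomy, 4.53, 6.99 and 5.26 in HF control, and 5.4, 8.89 and 25.6 in HF laparotomy. HF laparotomy replicate 3 alone was above 20 TPM for both, and the other libraries of all groups overlapped. Irgm1, which regulates the other immunity-related GTPases and was the most abundant of the group, measured 13, 13 and 13.8 TPM in LF control, 12.9, 15.4 and 12.1 in LF laparotomy, 11.1, 17.6 and 11.4 in HF control, and 10.8, 13.3 and 21.5 in HF laparotomy, a range of 2-fold. Gbp3 reached 21.7 TPM and Gbp7 10.5 TPM in HF laparotomy replicate 3, against at most 8.81 and 4.43 TPM in any other library. The Gbp2 difference between HF and LF was 0.62 ± 0.29 SE (adjusted p = 0.205, limma).

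**Figure D2:**
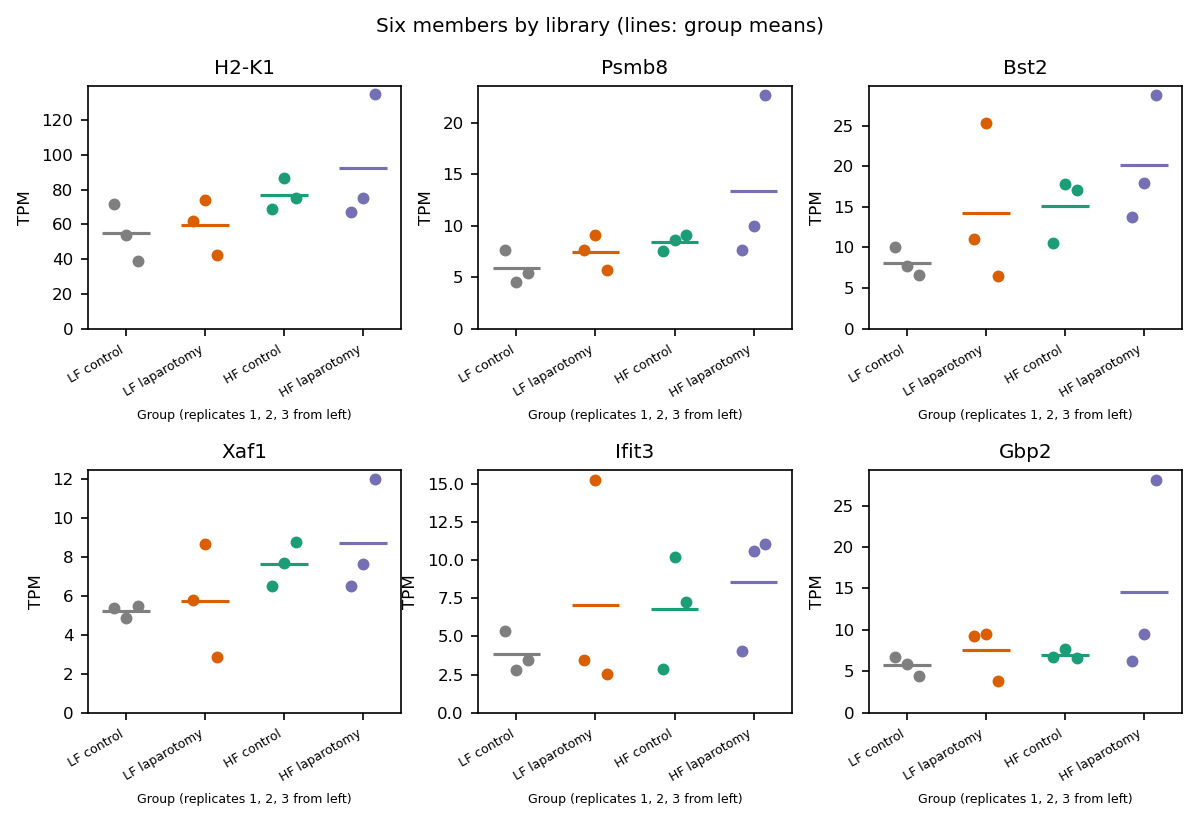
TPM of H2-K1, Psmb8, Bst2, Xaf1, Ifit3 and Gbp2 in each library (y axis, TPM from 0; x axis, group, with replicates 1, 2 and 3 from left; points, libraries; lines, group means). Gbp2 is set apart by HF laparotomy replicate 3 at 28.1 TPM, Ifit3 is highest in LF laparotomy replicate 2 at 15.3 TPM, and the HF and LF controls do not overlap for Bst2 and Xaf1.

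Among the 7 enzymes of ISG15, ubiquitin and ADP-ribose conjugation, Dtx3l fell in HF and none rose. Dtx3l measured 3.67, 3.57 and 3.38 TPM in LF control, 3.07, 4.25 and 3.24 in LF laparotomy, 2.41, 3.28 and 2.15 in HF control, and 2.01, 2.53 and 3.63 in HF laparotomy. In controls every HF value was below every LF value, and after laparotomy the groups overlapped. The fall was 0.17 ± 0.12 SE relative to the all-gene median (adjusted p = 0.0436, limma), where the tested difference was -0.32 and the all-gene median -0.15, and it was not called with size factors, with quantile normalization or with rescaled TPM. Rnf213, a very large ubiquitin ligase, measured 4.62, 4.56 and 4.2 TPM in LF control, 4.32, 7.21 and 2.81 in LF laparotomy, 5.88, 6.32 and 5.85 in HF control, and 4.68, 6.52 and 7.91 in HF laparotomy. Its HF controls were all above its LF controls, but the difference of 0.53 ± 0.16 missed the threshold (adjusted p = 0.0713). Parp14, an ADP-ribosyltransferase, measured 2.23, 1.73 and 1.81 TPM in LF control, 2.57, 3.27 and 1.65 in LF laparotomy, 2.27, 2.2 and 2.44 in HF control, and 1.82, 2.99 and 4.18 in HF laparotomy. Isg15 itself measured 3.34, 1.82 and 1.95 TPM in LF control, 2.35, 7.09 and 1.68 in LF laparotomy, 2.55, 4.97 and 4.98 in HF control, and 3.75, 6.61 and 6.35 in HF laparotomy. Isg15 differed by 0.76 ± 0.25 between HF and LF (adjusted p = 0.0657), and its LF laparotomy values alone spanned 1.68 to 7.09 TPM. Usp18, which removes ISG15 from proteins, ranged from 1.16 to 2.92 TPM, while Trim25 and Parp9 ranged 1.59-fold and 1.6-fold.

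Of the 6 class I presentation genes, H2-K1 rose in HF, and all 6 were above the all-gene median, with a group median of 0.55. B2m, the light chain shared by class I molecules, was the most abundant member of all. It measured 188, 165 and 114 TPM in LF control, 167, 208 and 99 in LF laparotomy, 183, 190 and 171 in HF control, and 169, 196 and 347 in HF laparotomy. HF laparotomy replicate 3 was 2.03 times the median of the other libraries for B2m, and the lowest values were in LF laparotomy replicate 3 and LF control replicate 3. H2-K1 measured 72, 53.8 and 39 TPM in LF control, 62.1, 74.1 and 42.6 in LF laparotomy, 68.7, 86.5 and 75.2 in HF control, and 67.1, 75.4 and 135 in HF laparotomy. The group means were 54.9 ± 16.5 TPM (SD, n = 3) in LF control and 76.8 ± 8.97 TPM (SD, n = 3) in HF control, and the highest LF control (72 TPM) was above the lowest HF control (68.7 TPM). Its difference was 0.70 ± 0.19 SE (adjusted p = 0.0346, limma). H2-D1, the other classical heavy chain, differed by 0.60 ± 0.18 and missed the threshold (adjusted p = 0.064). Tap1, a subunit of the peptide transporter, measured 2.84, 1.89 and 1.77 TPM in LF control, 3.49, 4.59 and 1.96 in LF laparotomy, 2.03, 3.95 and 2.56 in HF control, and 2.25, 4.16 and 11.8 in HF laparotomy. Tap1 stood out in HF laparotomy replicate 3, at 4.6 times the median of the other libraries, whereas its partner Tap2 was at 1.66 times and the loading factor Tapbp at 1.55 times.

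Among the 5 immunoproteasome and PA28 genes, Psmb8 rose in HF. Psmb8 measured 7.68, 4.58 and 5.43 TPM in LF control, 7.6, 9.08 and 5.68 in LF laparotomy, 7.59, 8.65 and 9.08 in HF control, and 7.61, 10 and 22.7 in HF laparotomy. The LF and HF libraries overlapped between 7.59 and 9.08 TPM. Psmb8 differed by 0.71 ± 0.21 SE (adjusted p = 0.0459, limma). Psmb9 measured 3.23, 3.05 and 2.85 TPM in LF control, 4.3, 6.74 and 4.26 in LF laparotomy, 4.88, 5.34 and 3.83 in HF control, and 4.15, 4.83 and 11.6 in HF laparotomy. Every HF control was above every LF control for Psmb9, and every LF laparotomy library was above every LF control. Psme2, a subunit of the PA28 activator and the most abundant of the group, measured 46.8, 36.6 and 46.8 TPM in LF control, 45.9, 51 and 52.1 in LF laparotomy, 51.7, 49.4 and 45.2 in HF control, and 44.5, 48.8 and 52.7 in HF laparotomy. Psme2 and its partner Psme1 varied least of the group, 1.44-fold and 1.38-fold, and Psme1 was at -0.01 ± 0.09 between HF and LF. After laparotomy all HF libraries were below all LF libraries for Psme1, which is also the case for 36.2% of all genes.

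The log2 ratio of each inducible subunit to the constitutive subunit it displaces was compared by an exact permutation test, two-sided, over 6 comparisons. Psmb8/Psmb5 was -4.14, -4.63 and -4.58 in LF control, -4.11, -3.87 and -4.75 in LF laparotomy, -4.15, -4.26 and -3.99 in HF control and -4.21, -3.76 and -2.58 in HF laparotomy. The last of these, HF laparotomy replicate 3, stood apart, with a linear ratio of 0.162 against at most 0.0675 in any other library. HF exceeded LF by 0.52 for Psmb8/Psmb5 (exact permutation p = 0.075, adjusted 0.225), by 0.25 for Psmb9/Psmb6 (exact permutation p = 0.34, adjusted 0.34) and by 0.41 for Psmb10/Psmb7 (exact permutation p = 0.03, adjusted 0.18). Laparotomy exceeded control by 0.41, 0.41 and 0.20 for the same pairs (exact permutation p = 0.165, 0.14 and 0.235, adjusted 0.247, 0.247 and 0.282). Without HF laparotomy replicate 3 the differences between HF and LF were 0.29, 0.048 and 0.34 for the same pairs, and those between laparotomy and control 0.18, 0.20 and 0.13. The smallest p that the 400 arrangements allow is 0.005, and none of the 6 comparisons passed after adjustment.

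**Figure D3:**
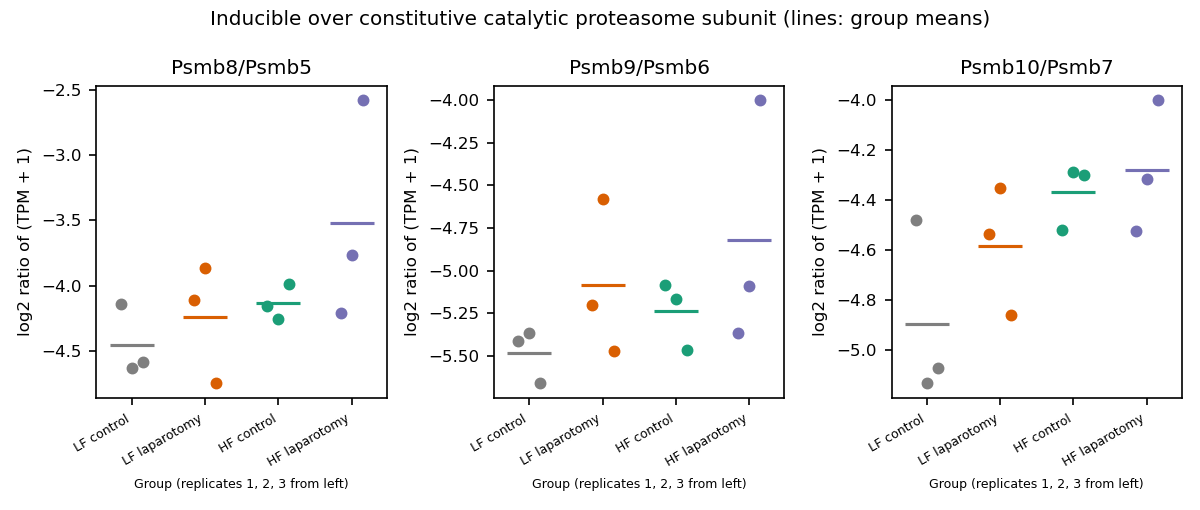
Log2 ratio of inducible to constitutive catalytic proteasome subunit, from TPM + 1, in each library (y axis, log2 ratio; x axis, group, with replicates 1, 2 and 3 from left; points, libraries; lines, group means). HF laparotomy replicate 3 is highest in each panel, at -2.58, -4.00 and -4.00.

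Single libraries carried much of the variation, and they are described here after their values were seen, with no test. HF laparotomy replicate 3 was the highest of the 12 libraries for 27 of the 41 tested members, whereas it was highest for 6.26% of all tested genes. LF laparotomy replicate 2 was highest for 7 members (6.52% of all genes), and HF control replicate 2 was highest for 4 (11.2%). LF laparotomy replicate 3 was lowest for 20 members (3.9% of all genes) and LF control replicate 3 for 8 (3.25%). LF laparotomy replicate 3 was at the same time the highest library for 36% of all genes. Relative to each gene's median over libraries and to the library's own all-gene median, all 41 members were above 0 in HF laparotomy replicate 3 and 0 of 41 were in LF laparotomy replicate 3. The medians of the members there were 0.82 and -0.51. Within LF laparotomy the members' medians ran from -0.51 to 0.30, and within HF laparotomy from 0.13 to 0.82, so the ranges of the laparotomy groups overlapped.

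**Figure D4:**
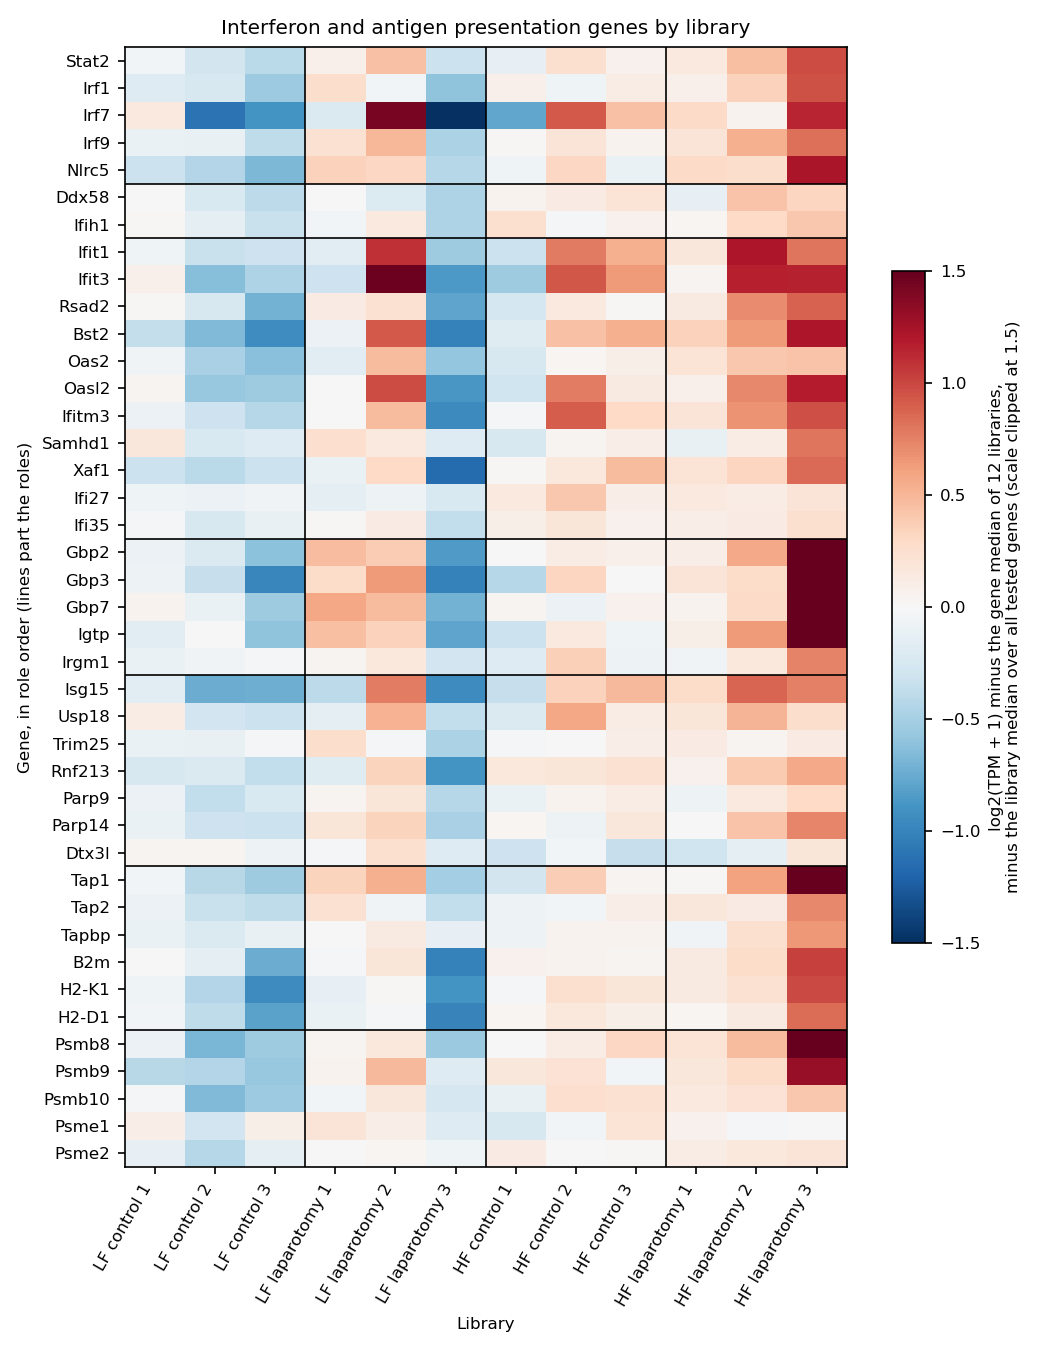
Level of each tested member (rows, by role) in each library (columns, by group), as log2(TPM + 1) minus the gene's median over the 12 libraries and minus the library's median over all tested genes, with the colour scale clipped at 1.5. HF laparotomy replicate 3 is above 0 for all 41 members and LF laparotomy replicate 3 for 0 of 41.

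LF laparotomy replicate 2 and HF laparotomy replicate 3, which were highest for the most members, are set side by side by role. In HF laparotomy replicate 3 the GTPases led, with a median of 1.96, followed by transcription factors (0.98), class I presentation (0.92) and antiviral effectors (0.85), while the ISG15 and ubiquitin enzymes were at 0.30. The largest ratios to the median of the other libraries were in Tap1 (4.6), Igtp (4.53), Gbp3 (4.34), Gbp2 (4.22) and Nlrc5 (4.19). In LF laparotomy replicate 2 the antiviral effectors (0.47), transcription factors (0.45), GTPases (0.39) and ISG15 and ubiquitin enzymes (0.33) had similar medians, and class I presentation was at 0.07. Its largest ratios were in Ifi44 (4.16), Ifit3 (3.79), Irf7 (3.37) and Ifit1 (3.04), and for Gbp2, H2-K1 and Irf1 it was at 1.43, 1.08 and 1.03. Compared directly, 31 of the 43 members were higher in the HF library, including all 5 GTPases and all 6 class I genes. The 12 members higher in the LF library were Irf7, Ifit1, Ifit3, Oas1a, Oas2, Ifi35, Ifi44, Isg15, Usp18, Parp9, Dtx3l and Psme1. HF laparotomy replicate 2 was about as high over all members as LF laparotomy replicate 2 (medians 0.29 and 0.30, with 39 and 35 of 41 above 0), with antiviral effectors at 0.64, GTPases at 0.28 and class I presentation at 0.23. HF control replicate 2, without surgery, was also high in the effectors (median 0.40), with Ifit3 at 2.53 and Irf7 at 2.3 times the median of the other libraries. Its GTPases had a lower median (0.15) and were mixed, from -0.09 for Gbp7 to 0.36 for Irgm1, with 4 of 5 above 0.

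**Figure D5:**
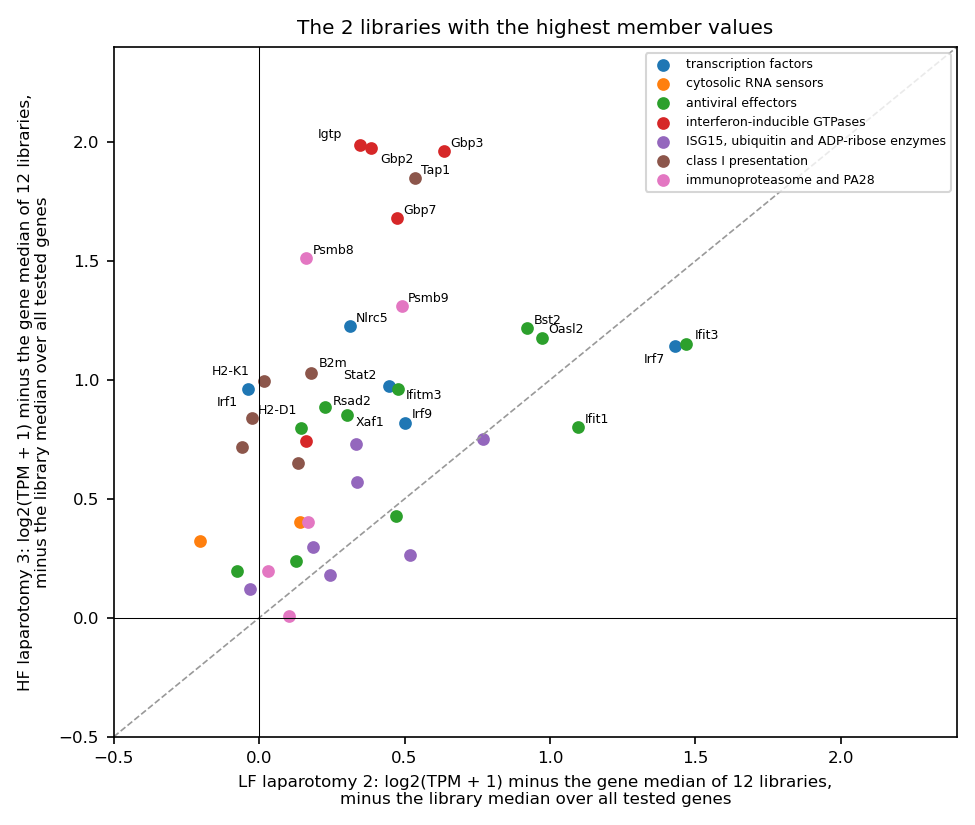
Deviation of each tested member in LF laparotomy replicate 2 (x axis) and HF laparotomy replicate 3 (y axis), as log2(TPM + 1) minus the gene's median over 12 libraries and minus the library's all-gene median (points, genes, coloured by role; dashed line, equal deviation; names at deviations above 0.8). Igtp, Gbp2, Gbp3 and Tap1 lie near 2 on the y axis and under 0.7 on the x axis, while Irf7, Ifit3 and Ifit1 lie right of the dashed line.

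Several immune cell marker lists were also high in some of these libraries. Summed TPM of 15 macrophage markers was 148 in HF laparotomy replicate 3, 118 in LF laparotomy replicate 2 and 110 in HF control replicate 2, and it was 117 in LF control replicate 1, where the members' median was -0.07. The range of this sum was 46.8 to 117 in LF control, 48.3 to 118 in LF laparotomy, 45.5 to 110 in HF control and 43.7 to 148 in HF laparotomy. The 17 lymphocyte markers, none of which reached a mean of 1 TPM, summed to 6.85 TPM in HF laparotomy replicate 3 and 1.61 to 4.92 TPM elsewhere. Dendritic and plasmacytoid markers, a list that includes Bst2, summed to 46.7 TPM there, to 39.7 TPM in LF laparotomy replicate 2 and to 22.5 to 34 TPM elsewhere. Bst2, itself a member, gave 28.8 TPM and 25.3 TPM of the first 2 sums. In LF control replicate 1 the list summed to 28.9 TPM, of which Bst2 gave 10.1 TPM. The sums of this list are therefore not separate from the members. Of the 10 neutrophil markers 2 reached a mean of 1 TPM, and Elane was listed at 0 in every library. They summed to 22.7 TPM in HF laparotomy replicate 2, 15.9 TPM in LF laparotomy replicate 2 and 14.8 TPM in HF control replicate 2. Their sum was 12.9 TPM in HF laparotomy replicate 3 and 2.54 to 8.02 TPM elsewhere. The class II presentation list holds genes of professional antigen-presenting cells but also Rfx5, Rfxap and Rfxank, and it shares Ctss with the macrophage markers. Its median deviation was 1.31 in HF laparotomy replicate 3, 0.85 in HF control replicate 2, 0.57 in LF control replicate 1 and 0.52 in LF laparotomy replicate 2. The part of immune cells in the member values was not tested.

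Between HF and LF, 8 of 19 endothelial markers rose, against 6.03% of all genes, with a median of 0.40. The sum of these markers was 463 to 572 TPM in LF and 538 to 797 TPM in HF. None of the 11 tested macrophage markers and none of the 10 tested class II genes passed the test (limma, 0 at an unadjusted p under 0.05), with medians of 0.22 and 0.23. The part of endothelial RNA in the HF values of the members was not tested.

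Split by treatment, no member passed the test between HF and LF. In controls 0 of 41 were called, 1 was higher at an unadjusted p under 0.05 (Psmb10, 0.54 ± 0.18, unadjusted p = 0.0303, limma), and 40 were above the all-gene median, with a median of 0.35. Among all genes 2.44% were called higher and 8.04% lower in controls, and 7.5% and 24.4% had an unadjusted p under 0.05. In 6 members, Irf1, Xaf1, Bst2, Rnf213, Nlrc5 and Psmb9, all HF controls were above all LF controls, which is true of 9.11% of all genes, and Dtx3l was the reverse, as were 31.3% of genes. After laparotomy 0 of 41 were called and 2 were higher at an unadjusted p under 0.05, Psmb8 (0.84 ± 0.30) and H2-K1 (0.79 ± 0.27), with a median of 0.51 (0.26 without LF laparotomy replicate 3 and 0.28 without HF laparotomy replicate 3). There 1.5% of all genes were called higher and 24.5% lower, and 3.57% and 37.1% had an unadjusted p under 0.05. No member had all HF laparotomy libraries above all LF laparotomy libraries, against 4.29% of genes. The group means of the 2 comparisons within treatment share no libraries. Their SE and p-values share 1 estimate of the spread from all 12 libraries, so the 2 tests are not separate.

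Laparotomy changed no member by the test. Averaged over HF and LF, 0 of 41 members and 0% of all genes were called (limma), and 2 members were higher at an unadjusted p under 0.05, against 0.567% of all genes higher and 6.38% lower. These were Nlrc5 (0.56 ± 0.19, unadjusted p = 0.0226, adjusted 0.683) and Psmb9 (0.54 ± 0.19, unadjusted p = 0.03, adjusted 0.683). Of the 41 members 40 were above the all-gene median, with a median of 0.28, and the GTPases had the highest group median, 0.57. Igtp was at 0.62 ± 0.29 and Tap1 at 0.62 ± 0.28, and in HF laparotomy replicate 3 alone reached 25.6 and 11.8 TPM, the other two HF laparotomy libraries staying at or under 8.89 and 4.16 TPM. Within LF and within HF 0 members were called and 0 had an unadjusted p under 0.05, with medians of 0.21 and 0.35. The LF median was 0.023 without LF laparotomy replicate 2, 0.073 without LF laparotomy replicate 1 and 0.49 without LF laparotomy replicate 3, and the HF median was 0.14 without HF laparotomy replicate 3 and 0.23 without HF control replicate 1. Of all genes, 1.45% were higher and 1.25% lower at that p in LF, and 0.26% and 5.92% in HF. Psmb9 was the only member whose LF laparotomy libraries were all above the LF controls, as in 2.54% of genes, and no member had this in HF, where 0.604% of genes did. The interaction of laparotomy and function called 0 members, 0 at an unadjusted p under 0.05 (limma; 0.344% of all genes higher and 2.73% lower), with Igtp at the largest difference, 0.73 ± 0.59 (unadjusted p = 0.296).

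Other genes of the same pathways were counted from lists that held none of the members. Of 44 tested interferon-stimulated genes, 10 rose in HF and 0 fell, against 6.03% and 35.3% of all genes, and their median was 0.40. Ifi203, a DNA-binding protein of the interferon-inducible p200 family, measured 5.37, 4.43 and 3.69 TPM in LF control, 4.75, 5.83 and 3.78 in LF laparotomy, 7.2, 6.99 and 5.99 in HF control, and 5.55, 8.21 and 7.32 in HF laparotomy. Ifi203 rose by 0.63 ± 0.12 SE (adjusted p = 0.00588, limma) and kept its call without any 1 library. Ifitm2, a neighbour and relative of Ifitm3, rose by 0.55 ± 0.11 (adjusted p = 0.0116), and Ly6e, a surface protein that restricts viral entry, by 0.56 ± 0.13 (adjusted p = 0.019); both kept their calls likewise. The others that rose were Parp10, Uba7, which activates ISG15, Mndal, Lgals9, Trim34a, Sp100 and Helz2. With size factors 18 of the 44 were called, where 19.9% of all genes were called higher and 20.6% lower. Without the 3 libraries high in Myh4 only 1 was called, Parp10. Ifi203, Ifitm2 and Ly6e thus lost their calls there, and Ly6e and Parp10 lost theirs with no filter on low genes. The count was 4 without LF control replicate 2, LF control replicate 3, HF control replicate 1 or HF laparotomy replicate 3 (1 more then fell in the last), 5 without HF control replicate 3 or HF laparotomy replicate 2, 6 without LF laparotomy replicate 3 and 18 without HF laparotomy replicate 1. The shares of all genes called in these fits are not given here.

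Of 14 other class I and loading genes, 3 rose, the class I genes H2-T22, H2-Q4 and H2-T23, and 4 fell, Lnpep, Canx, Erap1 and Pdia3. H2-Q4 measured 20.5, 15.5 and 10.8 TPM in LF control, 16.9, 19.3 and 11.3 in LF laparotomy, 18.9, 22.7 and 18.9 in HF control, and 18.8, 21 and 40.2 in HF laparotomy, and its difference was 0.68 ± 0.19 (adjusted p = 0.0436, limma). H2-Q4, like H2-K1, was highest in HF laparotomy replicate 3 and lowest in LF control replicate 3, and the calls of H2-Q4 and H2-T22 were each kept in 4 of 12 fits that left out 1 library. Lnpep, an aminopeptidase that trims peptides in endosomes and travels with the glucose transporter GLUT4 in muscle, measured 5.14, 6.51 and 5.86 TPM in LF control, 3.41, 5.88 and 6.08 in LF laparotomy, 2.54, 2.63 and 2.54 in HF control, and 1.56, 1.63 and 2.12 in HF laparotomy. Every HF library was below every LF library for Lnpep, which fell by 0.88 on the log2 scale (SE 0.12, adjusted p = 0.00031, limma). Such a separation held for 31.3% of all genes within controls and for 36.2% after laparotomy. Of 16 proteasome genes outside the immunoproteasome, 3 fell, Psme4, Psme3 and Psma1, and none rose, with a median of 0.08. The falls in both lists were under the 35.3% of all genes that fell. With size factors 7 of the 16 proteasome genes rose and 2 fell, and 5 of the 14 class I and loading genes rose and 2 fell. Of all genes 19.9% were higher and 20.6% lower with size factors. No gene of any of these lists passed the test for laparotomy averaged over function, where none of all genes did. The smallest unadjusted p-values there were those of Jak2 (-0.23 ± 0.08, unadjusted p = 0.00144) among the upstream genes, Tgtp1, a T-cell-specific GTPase (0.94 ± 0.34, unadjusted p = 0.0247), Psme4 (-0.15 ± 0.09, unadjusted p = 0.029), Lnpep (-0.20 ± 0.12, unadjusted p = 0.0321) and Rfxank (-0.05 ± 0.07, unadjusted p = 0.115), all with an adjusted p of 0.683 (limma).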

How the data were processed

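Gene-level TPM of 12 soleus RNA-seq libraries were analysed as deposited by the authors. Libraries were made from total RNA with a stranded TruSeq kit and polyA pull-down, per the labels' protocols. The aligner kallisto and the build GRCm38 are named in the submitters' processing notes without versions. TPM keeps no read depth, so no counting error can be given. Gene IDs were matched to symbols with GENCODE M21 (29857 of 30323 matched). The 10757 genes whose mean over libraries reached 1 TPM were tested on log2(TPM + 1) with limma 3.58.1 in R 4.3.3, using a mean-variance trend, 1 mean per group over 12 libraries (8 residual degrees of freedom), 7 contrasts and Benjamini-Hochberg adjustment over all tested genes of a contrast. Fold changes on this scale understate changes of low genes. The fit was tested on simulated data. The 43 members and all gene lists were chosen with earlier results of these data known. Values per library are given for members past 0.05 and, in each of the 7 role groups, for the member with the highest mean and those with the smallest p for function and for laparotomy; Irf7, Ifit3, Isg15, Jak1, H2-Q4, Lnpep and Ifi203 were added after their values were seen. Other pathway genes are named up to 10 in each direction by smallest p. The settings varied were the pseudocount (0.5 or 0.1), the filter (none, or a mean reaching 5 TPM) and the scaling (size factors by median of ratios, quantile normalization, or TPM recomputed after dropping 13 mitochondrially encoded genes and the 10 most abundant). Further alternatives were robust variance moderation, array weights, only the groups compared, and leaving out libraries. Near-identical copies were sought with blastn 2.17.0 (at least 95% identity over 80% of the transcript). Gbp5, Gbp6, Gbp10, Ifi30 and Mb21d1 were not analysed here, and 1 gene of the upstream list is not reported here.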

Additional observations from a re-analysis of the deposited data

How the results depend on the processing

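The count of members called between HF and LF averaged over treatments was 5 and changed with most settings. It was 0 with no filter on low genes, 0 without the 3 libraries high in Myh4 and 1 with robust variance moderation. It was 17 with size factors, where 19.9% of all genes were higher and 20.6% lower. The count of members was 17 with quantile normalization and 0 to 12 without any 1 library. Apart from size factors, the shares of all genes called under the alternatives are not given here. Without LF laparotomy replicate 2 and HF laparotomy replicate 3 together, an alternative chosen after seeing the data, it was 8, of which 7 were higher. Within controls the count rose from 0 to 3 with size factors, 3 with quantile normalization and 4 with only the groups compared, and was 0 to 1 without any 1 library (1 without LF control replicate 1). With size factors 9.05% of all genes were called higher and 8.92% lower in controls. After laparotomy the count of members rose from 0 to 1 with size factors, 1 with quantile normalization and 6 with array weights, and was 0 to 4 without any 1 library (4 without LF laparotomy replicate 2). With size factors 9.31% of all genes were called higher and 10.7% lower after laparotomy. Array weights, whose fit stopped before convergence, gave 14 members for laparotomy averaged over function and 20 for laparotomy in LF, where every other setting gave 0. The share of all genes called with array weights is not given here, so these counts cannot be read as particular to the members. The cause of these counts was not tested. The median of the members between HF and LF averaged stayed above 0 in all 23 alternatives, from 0.23 to 0.59. For laparotomy in LF the members' median was 0.0231 to 0.488 without any 1 library and -0.00655 without the 2 libraries left out together, and in HF it was 0.139 to 0.486 without any 1 library. The subunit ratios kept their sign in all 14 alternatives each but not their size: without any 1 library, the HF against LF difference was 0.287 to 0.695 for Psmb8/Psmb5 and 0.0483 to 0.391 for Psmb9/Psmb6, and the laparotomy difference was 0.179 to 0.587 and 0.203 to 0.545. No paired analysis was possible because the labels give no replicate numbers that groups share. With 3 libraries per group, small differences may have been missed, and the depth is unknown.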
